A study of Caenorhabditis elegans with 2 samples.

Results

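The genes described here encode the C. elegans segregase CDC-48, in its copies cdc-48.1 and cdc-48.2, and its core cofactors UFD-1, NPL-4 (copies npl-4.1 and npl-4.2) and UFD-2. They are 6 of 19973 nuclear protein-coding genes of the annotation, and all 6 symbols were found in it. The genes were chosen by name with peak values of these data already known, so their counts, signals and ranks in the peak lists are a description and were not tested. The readout was the position and signal of DPL-1 peaks from 1000 bp upstream to 200 bp downstream of any annotated transcript 5' end of a gene, called its promoter window.

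DPL-1 is the DP protein of C. elegans, the partner with which E2F transcription factors bind DNA and a subunit of the DREAM complex, a repressor of cell-cycle genes. It was mapped by chromatin immunoprecipitation and sequencing in whole first-stage (L1) larvae of mixed sex, of strain OP105. The strain is an unc119(ed3) mutant with the integrated transgene wgIs105, which carries unc119 and dpl-1 fused to TY1, EGFP and FLAG tags. There was 1 group of 2 biological replicates and no other group. The promoter that drives the transgene is not stated in the labels, 1 integrated line was used, and larvae were processed whole, so the cells in which a promoter was occupied cannot be told from these data. A possible control experiment named in the labels was not analysed here.

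CDC-48, known as p97 or VCP in mammals, is a ring-shaped AAA ATPase that pulls ubiquitin-tagged proteins out of membranes, complexes and chromatin, often ahead of their breakdown by the proteasome. UFD-1 and NPL-4 form the adaptor that hands ubiquitin-tagged substrates to the ring, and UFD-2 is a ligase of the E4 kind that lengthens ubiquitin chains. In C. elegans the ATPase with UFD-1 and NPL-4 is known for degradation of misfolded proteins of the endoplasmic reticulum and for DNA replication in embryos, where it removes the licensing factor CDT-1 and the replicative helicase from chromatin.

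DPL-1 peaks of the IDR list (irreproducible discovery rate, a threshold the authors applied with the lists of both replicates) stood in the promoter windows of cdc-48.1, cdc-48.2 and ufd-2. The other 3 genes, ufd-1, npl-4.1 and npl-4.2, had none there. The DNA from 100 bp before to 100 bp after each of the 3 summits is given because these are the sites of strongest DPL-1 signal in the promoter windows of the group. The sequences were read 5' to 3' along the strand of the gene from the RefSeq genome of build WBcel235, which has the coordinates of ce11. They lie at chrII:10563469-10563669 (minus strand), chrII:8137555-8137755 (plus strand) and chrII:8062307-8062507 (plus strand), in the order printed. Capitals mark matches to the E2F-type, CHR-type and shared words described further on, and neighbouring or overlapping matches run together.
cdc-48.1: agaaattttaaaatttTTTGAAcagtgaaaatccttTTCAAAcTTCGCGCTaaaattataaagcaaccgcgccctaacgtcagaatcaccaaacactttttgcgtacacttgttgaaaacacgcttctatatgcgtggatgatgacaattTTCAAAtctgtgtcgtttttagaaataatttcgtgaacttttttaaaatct
cdc-48.2: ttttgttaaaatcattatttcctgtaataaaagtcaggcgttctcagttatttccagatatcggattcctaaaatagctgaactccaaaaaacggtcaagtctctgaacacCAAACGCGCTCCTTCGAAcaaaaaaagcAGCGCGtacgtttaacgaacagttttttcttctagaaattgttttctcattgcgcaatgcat
ufd-2: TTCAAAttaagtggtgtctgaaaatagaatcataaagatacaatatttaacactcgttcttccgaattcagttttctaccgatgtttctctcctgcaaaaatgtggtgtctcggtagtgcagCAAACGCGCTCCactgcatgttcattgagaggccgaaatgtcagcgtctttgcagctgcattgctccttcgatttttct

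All 3 sequences are intergenic. Their GC content was 32.3% at cdc-48.1, 36.8% at cdc-48.2 and 41.3% at ufd-2, against a median of 40.8% around all 2797 IDR summits and of 32.8% in the 201 bp upstream of all protein-coding genes.

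Signal values are those of the authors' peak caller, whose scale is not stated, so they were set side by side within a list and not between lists. The IDR list held 2797 peaks with signals between 30.3 and 2461 and a median of 71.5. These are also the 2797 strongest of the 23883 peaks of the relaxed list made from both replicates together, so an IDR signal is a pooled value. The relaxed lists of replicates 1 and 2 held 30000 peaks each, with lowest signals of 5.02 and 2.97. The number of reads behind a peak is unknown.

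The count of the 6 genes with a summit in the promoter window was 3 in the IDR list, where 14.3% of all protein-coding genes (2866 of 19973) had one. It was 4 in the pooled relaxed list, against 41.2% of all genes. In the relaxed lists of replicates 1 and 2 the counts were 4 and 3, against 46.6% and 46.3% of all genes. Because these lists were used in choosing the genes, nothing is read from the counts.

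**Figure D1:**
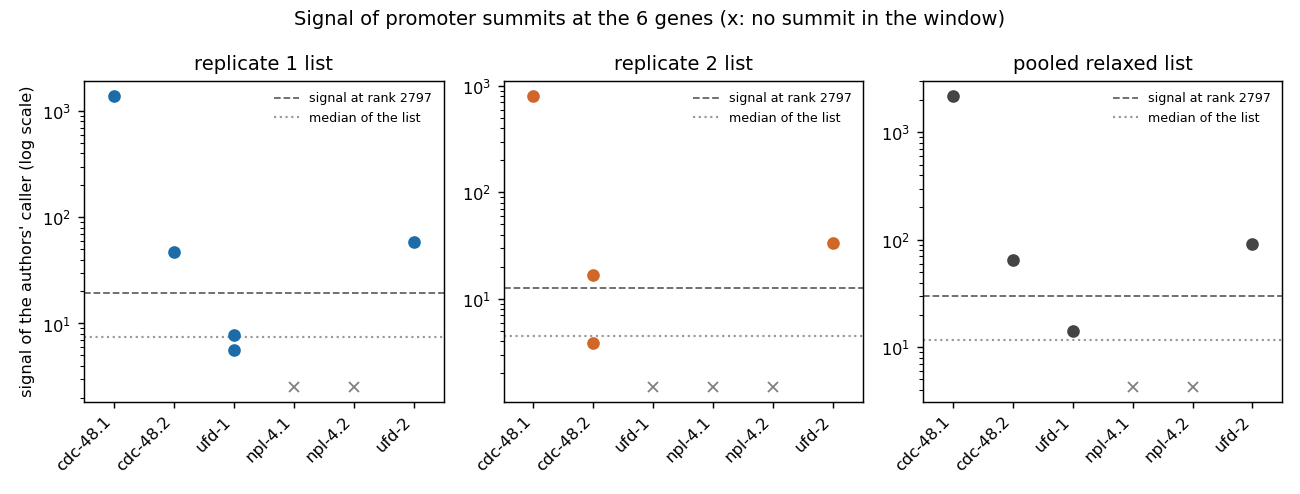
Signal of each summit in the promoter windows of the 6 genes, on a log axis, in the relaxed lists of replicate 1, replicate 2 and both replicates pooled, with a cross where the window held no summit. Dashed lines mark the signal at rank 2797 of a list and dotted lines its median: cdc-48.1 is far above both lines in each panel, the stronger summit of cdc-48.2 and that of ufd-2 are above the dashed line, and the summits of ufd-1 stand below it.

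Of the ATPase copies, cdc-48.1 (WBGene00007352, chromosome II, 10560036 to 10563407, minus strand) carried one of the strongest DPL-1 peaks of the genome. Its signal was 1399.7 in replicate 1 and 811 in replicate 2, which placed it at rank 2 in the list of each replicate. In the IDR list the peak had a signal of 2202 and rank 2, and only 1 of the 2866 genes with an IDR summit in the promoter window, rpl-3, had a stronger one. The peak ran from 10563399 to 10563748 (350 bp), and its summit at 10563569 lay 162 bp upstream of the single annotated 5' end. The replicate summits were 171 bp and 155 bp upstream, 16 bp apart. The promoter window of no other protein-coding gene held this summit. The next gene upstream, C06A1.6 on the same strand, ends 704 bp away, with the summit between them, and the peak reaches over the 5' end of cdc-48.1.

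The second copy, cdc-48.2 (WBGene00008053, chromosome II, 8138496 to 8141230, plus strand), had a peak near the middle of the IDR list. Its signal was 46.9 in replicate 1 (rank 1325) and 16.9 in replicate 2 (rank 2176), a mean rank of 1750.5 ± 602 (SD, n = 2). The IDR signal was 65.1, rank 1502. In both replicates it ranked far below cdc-48.1. The summit, at 8137655, was 841 bp upstream of the 5' end. Only 129 of the 2866 genes with an IDR summit in the window (4.5%) had their strongest summit farther upstream, and the median over these genes was 219 bp.

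The same summit lay 737 bp upstream of ctns-1, which is transcribed away from cdc-48.2 on the other strand and encodes the cystinosin orthologue, a lysosomal cystine transporter. The summit was therefore nearer to ctns-1, and the peak cannot be assigned to 1 of the 2 genes. The replicate summits were 75 bp apart, at 914 bp and 839 bp upstream of cdc-48.2. Close to its 5' end, 125 bp upstream, replicate 2 alone listed another summit with a signal of 3.84, at rank 20119 and with a −log10 q of 0.29.

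The coding sequences of the copies were 75.4% identical over 2448 aligned columns. Their 200 bp upstream of the 5' end were 47.6% identical over 233 aligned columns, a value to which gaps placed by the aligner contribute.

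**Figure D2:**
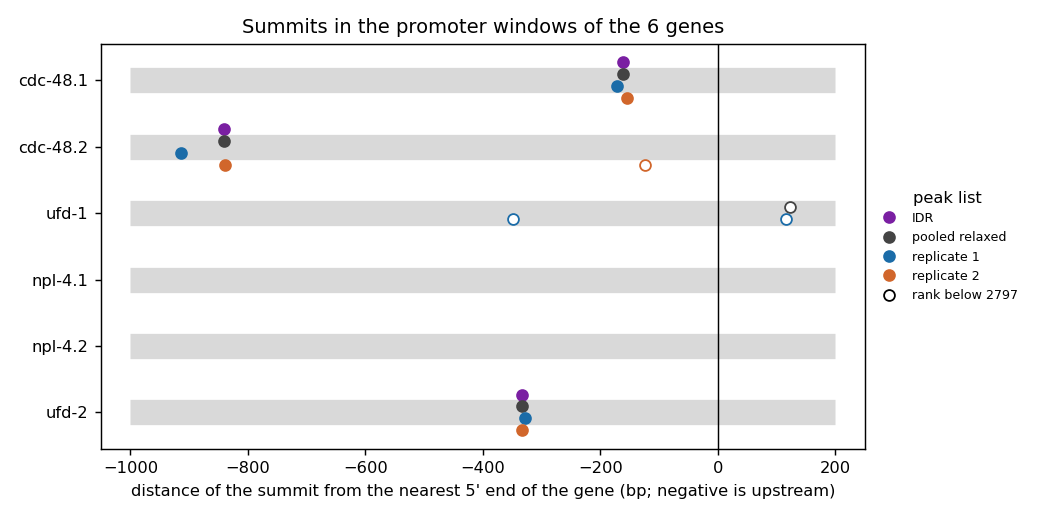
Distance of every summit from the nearest annotated 5' end of the gene in bp, with upstream negative, for the 6 genes. Grey bars show the promoter window, colours the list, and open circles summits ranked below 2797: the summits of cdc-48.1 and ufd-2 fall within 16 bp and 6 bp of each other between replicates, the matched summits of cdc-48.2 lie 839 to 914 bp upstream beside 1 weak summit of replicate 2 at 125 bp, and npl-4.1 and npl-4.2 have none.

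Among the cofactors, ufd-2 (WBGene00006734, chromosome II, 8062741 to 8066193, plus strand) had a peak in both replicates at nearly the same place and rank. Its signal was 58.5 in replicate 1 (rank 1077) and 33.8 in replicate 2 (rank 1204), a mean rank of 1140.5 ± 89.8 (SD, n = 2). The IDR signal was 91.8, rank 1110, beside a median of 95.1 for the strongest promoter summit of all 2866 genes. The summit, at 8062407, lay 334 bp upstream of the 5' end, and the replicate summits were 6 bp apart. No other protein-coding gene had it in its promoter window. The neighbours on both sides, T05H10.8 upstream and pdha-1 downstream, are on the same strand, and pdha-1 begins 91 bp past the end of ufd-2. The ranks of ufd-2 were better than those of cdc-48.2 in both replicates.

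The gene ufd-1 (WBGene00006733, chromosome IV, 12329408 to 12330890, minus strand) had no IDR summit in its promoter window. The pooled relaxed list gave a summit at 12330653 in an intron of the gene, 122 bp downstream of the nearest 5' end, with a signal of 14.1, rank 7487 and a −log10 q of 0.31. Replicate 1 listed 2 summits, with a signal of 7.71 (349 bp upstream, rank 13682) and of 5.63 (115 bp downstream, rank 25142). Replicate 2 had no summit in the window. Its nearest, with a signal of 5.87 and rank 8738, lay 212 bp downstream of the 5' end, just outside the window of 200 bp. The IDR list ends at a signal of 30.3, so the pooled summit was below it.

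Upstream, ufd-1 is preceded on the same strand by F19B6.1, which ends 85 bp before it. The nearest IDR summit to the 5' end of ufd-1 lay 4027 bp upstream in an intron of F19B6.1, with a signal of 143 and rank 747. In the replicates this summit had signals of 94.8 (rank 711) and 50.5 (rank 815). On the other side, F19B6.3 is on the opposite strand, 481 bp from the end of ufd-1. How far transcripts of ufd-1 begin upstream of the annotated 5' end was not tested, and in C. elegans trans-splicing can place annotated ends downstream of the start of transcription.

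The copies npl-4.1 (WBGene00019120, chromosome II, 5631351 to 5633284) and npl-4.2 (WBGene00019121, chromosome II, 5622889 to 5624959), both on the plus strand, had no summit in the promoter window in any of the 4 lists. The nearest IDR summits were 18276 bp away from the 5' end of npl-4.1 and 23167 bp away from that of npl-4.2. Their promoters are copies of each other, and the 200 bp upstream of each 5' end are printed once because they are the same in both. They lie at chrII:5631151-5631350 and chrII:5622689-5622888 on the plus strand of WBcel235 (RefSeq genome), with a CHR-type word in capitals.
npl-4.1 and npl-4.2: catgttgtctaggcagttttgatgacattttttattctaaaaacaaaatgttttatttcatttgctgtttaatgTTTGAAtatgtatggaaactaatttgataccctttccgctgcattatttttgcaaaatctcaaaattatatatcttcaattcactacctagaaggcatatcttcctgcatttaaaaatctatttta

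The genes lie in tandem with 8462 bp between their 5' ends. Upstream of the 5' ends they were identical for an unbroken 1325 bp, and over the promoter window 1200 of 1201 positions were the same. The coding sequences were 99.5% identical (1579 of 1587 positions). Of the 36-base words in each promoter window, 96.9% also occurred elsewhere in the genome, and of the 50-base words 95.7%. No such word of cdc-48.2, ufd-1 or ufd-2 did. At cdc-48.1 the share was 9.35%, in a stretch between 10564204 and 10564407 that does not reach the summit. How the authors treated reads that map to several places is not stated, so the missing summits at npl-4.1 and npl-4.2 cannot be read as missing DPL-1.

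A summit below the IDR list stood past the 3' end of npl-4.1, 430 bp beyond the gene in the pooled relaxed list (signal 22.3, rank 3710). It was listed in both replicates, with signals of 11.2 (336 bp past the end, rank 5931) and 14.5 (441 bp, rank 2479). The next genes in that direction, F59E12.8 for npl-4.1 and F59E12.15 for npl-4.2, are on the opposite strand. The genes before them are F59E12.6 and eif-3.L, also on the opposite strand.

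The 3 summit sequences were searched for words known from binding sites of the complexes that contain DPL-1. The E2F-type words were TTCCCGC and its variants, that is TTGGCGC, likewise TTCGCGC, and lastly TTGCCGC. The CHR-type words were TTTGAA and also TTCGAA, which resemble the cell-cycle homology region bound by the LIN-54 subunit of DREAM. Both strands were read within 100 bp of the summit. An E2F-type word stood at 1 of the 3 summits, cdc-48.1, where TTCGCGC at 10563620 to 10563626 was centred 54 bp from the summit. Such a word was present around 23.1% of all IDR summits, around 24.1% of those in promoter windows, and in 6.31% of promoters of all protein-coding genes (the 201 bp upstream of the outermost 5' end). Neither these shares nor those of the words below were adjusted for GC content. Its median was 40.8% around IDR summits and 32.8% in promoters.

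A CHR-type word stood at all 3 summits, and these words are common. They were present around 52.1% of all IDR summits, around 56.6% of those in promoter windows and in 56.2% of all promoters. At cdc-48.1 there were 3, centred 82, 62 and 52 bp from the summit, and the one at 62 bp is separated from the E2F-type word by 1 base. At cdc-48.2 the palindrome TTCGAA was centred 26 bp from the summit, and at ufd-2 a TTTGAA on the opposite strand was 98 bp away, at the edge of the sequence searched.

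**Figure D3:**
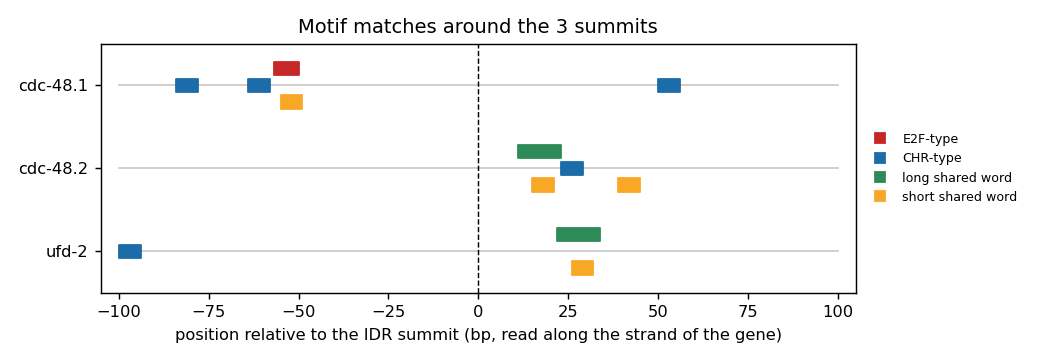
Positions of word matches within 100 bp of the IDR summits of cdc-48.1, cdc-48.2 and ufd-2, in bp along the strand of the gene, with the summit at 0 (dashed line). Red boxes mark the E2F-type words, blue the CHR-type words, green the 12-base word and yellow the 6-base word shared between summits: the E2F-type word occurs only at cdc-48.1 among the 3, and the 12-base word lies 16 bp and 28 bp from the summits of cdc-48.2 and ufd-2.

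The summits also shared words that were found after the sequences had been seen. There were 6 words of 6 bases common to all 3 on either strand. All except the rarest in promoters were less common around IDR summits than in promoters of all genes. Their shares ran from 11.4% to 49.3% around all IDR summits and from 15.5% to 60.6% in promoters. Around IDR summits in promoter windows, some were slightly more common than in promoters (44.2% against 42.9% and 33.6% against 31.8%). The rarest in promoters, AGCGCG, was present in 3.41% of promoters of all genes, against 17% of IDR summits and 18.9% of those in promoter windows. At cdc-48.1 it overlaps the E2F-type word, centred 52 bp from the summit. At cdc-48.2 it occurred at 18 bp and 42 bp and at ufd-2 at 28 bp. At cdc-48.2 (the match nearer the summit) and at ufd-2 it is part of a longer common word, CAAACGCGCTCC.

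The 12-base word was centred 16 bp from the summit of cdc-48.2, at 8137666 to 8137677, where TTCGAA follows it directly. At ufd-2 it was centred 28 bp from the summit, at 8062429 to 8062440. It was present around 1.64% of all IDR summits, around 2% of those in promoter windows and in 0.19% of promoters. Over full promoter windows it occurred at 0.606% of genes. Of the 6 here it occurred at 3, but cdc-48.2 and ufd-2 were fixed in advance, because the word was taken from their summit sequences. The count of 3 is therefore not to be set against that share. The third was ufd-1, with the word 243 bp upstream of its first 5' end, at 12331133 to 12331144 on chromosome IV, in the 3' untranslated region of F19B6.1. There the nearest IDR summit was 3778 bp away and the nearest summits of replicates 1 and 2 were 100 bp and 575 bp away. Of 298 occurrences in the genome, 46 (15.4%) lay within 100 bp of an IDR summit and 75 (25.2%) within 100 bp of a summit in the pooled relaxed list. Both counts include the sites of cdc-48.2 and ufd-2 from which the word was taken. For the shorter AGCGCG, with 13061 occurrences, the shares were 4.53% and 9.78%. A match is a description of letters, and whether DPL-1 or a partner binds it was not tested.

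The peaks whose signals over the 2 replicates were most like those of the 3 genes were found by the Euclidean distance of log2 signals, over 2805 genes with an IDR summit matched within 100 bp in both replicates. For cdc-48.1 these were rpl-3 (signals 1534.3 and 935, distance 0.24) and rpl-35 (1188.8 and 760, distance 0.25), which encode proteins of the large ribosomal subunit, and K01G5.10 (1138.9 and 689, distance 0.38). For cdc-48.2, ctns-1 had distance 0.00 because it shares the summit, followed by the lectin-family gene clec-196 (46.7 and 16.4) and xnp-1, the ATRX orthologue (45.4 and 17.1). For ufd-2 they were aakg-5 (57.8 and 33.8), an AMP-activated kinase subunit, the histone methyltransferase gene mes-4 (58.3 and 33.3) and C56A3.4 (57.5 and 34.0). The distances were 0.048 and 0.051 for clec-196 and xnp-1 and between 0.015 and 0.025 for the 3 genes like ufd-2, smaller than those at cdc-48.1.

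Beyond the core, 52 genes were set beside these 6 in 5 lists by role. Of them 28 (53.8%) had an IDR summit in the promoter window, against 14.3% of all protein-coding genes, and these used 27 distinct summits. For 18 of the 28 the summit also lay in the window of another gene, so that 10 had one of their own. For all 28 genes the summit had a match within 100 bp in both replicates. The same was true of 2805 of the 2866 genes with an IDR summit in the promoter window. For 24 of the 28, both matches were among the 2797 strongest peaks of the replicate. Shares over all genes are not given for shared summits or for these ranks, so nothing is read from the 18 and the 24. The lists were chosen with results of these data known, and the shares are given with no test.

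**Figure D4:**
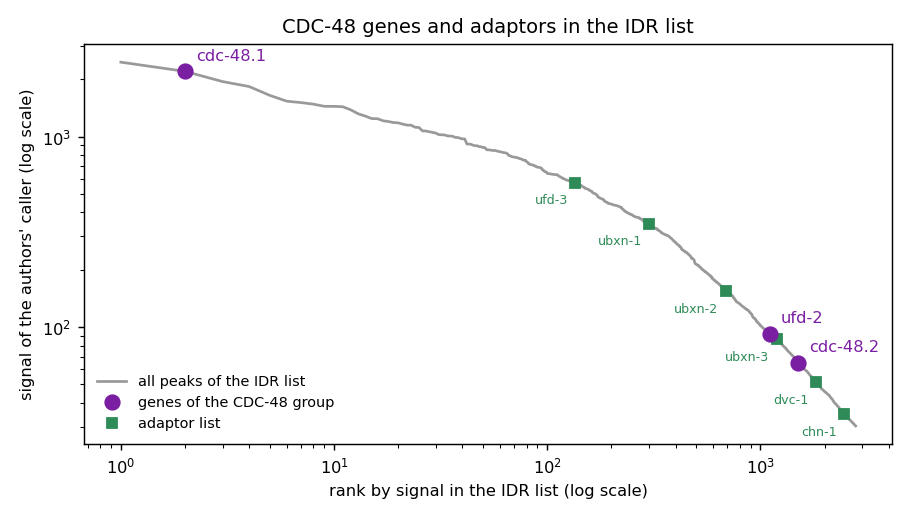
Signal against rank in the IDR list on log axes, with all 2797 peaks as a line, the 3 CDC-48 genes with a summit as purple circles and the 6 genes of the adaptor list as green squares. The summit of cdc-48.1 stands at rank 2, and those of ufd-2 and cdc-48.2 at ranks 1110 and 1502, among the adaptor genes.

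Of 11 further adaptor and partner genes of CDC-48, 6 (54.5%) had an IDR summit, with signals between 35.0 and 574. The strongest was at ufd-3, the orthologue of yeast Doa1 and human PLAA (574 in the IDR list, rank 135), with 357 in replicate 1 and 216 in replicate 2. Of the UBX-domain adaptors, ubxn-1 had a signal of 349, at a summit shared with tipn-1, ubxn-2 of 155, and ubxn-3 of 86.2 at 727 bp upstream. UBXN-3, the FAF1 orthologue, works with CDC-48 at replication forks. The U-box ligase gene chn-1, whose product acts together with UFD-2, had a signal of 35.0, at a summit shared with T09B4.2. The protease gene dvc-1, the SPRTN orthologue of DNA repair, had 51.3, at a summit shared with ima-1, but the replicates differed: 38.5 at rank 1566 in replicate 1 and 3.09 at rank 28313 in replicate 2. The other 5 genes, ubxn-4, ubxn-6, the ataxin-3 gene atx-3, the N-glycanase gene png-1 and 1 more, had no IDR summit.

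Of 11 genes for degradation from the endoplasmic reticulum (ERAD), 4 (36.4%) had an IDR summit, with a median signal of 73.8. The E2 gene ubc-7 stood out among them, with 510 and 305 in replicates 1 and 2 (ranks 62 and 66) and 814 in the IDR list. The other E2 gene ubc-6 had 81.6, the RING-finger gene rnf-121 had 66.1 and the derlin gene cup-2 had 48.5, and each of these 3 summits lay in the window of another gene as well (aka-1, C16C10.4 and tag-353). No IDR summit was listed for sel-1, for sel-11 and hrdl-1, which encode ubiquitin ligases of that membrane, for the ligase gene marc-6 or for the other 3.

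Of 7 genes for ubiquitin and its shuttles, 4 (57.1%) had an IDR summit, with a median signal of 131. The ubiquilin gene ubql-1 had 209 at a summit shared with pdi-3, and ubq-2, which encodes ubiquitin fused to a ribosomal protein, had 174 at a summit shared with frg-1. The shuttle gene rad-23 had 88.3, shared with rpn-12, and its replicates stood at rank 921 (signal 69.6) and rank 4551 (signal 8.32). The polyubiquitin gene ubq-1 had 30.4, close to the lowest signal of the list, with rank 2532 in replicate 1 and 6636 in replicate 2. The E1 gene uba-1, ddi-1 and hecd-1 had none.

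Of 9 genes for replisome unloading and for CDC-48 substrates in the cell cycle, 6 (66.7%) had an IDR summit, with a median signal of 289. The elongin B gene elb-1, a subunit of the CUL-2 ligase that marks the helicase for unloading, had 795 at a summit in the windows of 2 other genes, Y41C4A.11 and Y41C4A.9. The fork-protection genes tim-1 and tipn-1 had 657 and 349, at summits shared with Y75B8A.23 and ubxn-1. The substrate genes cdt-1, for the licensing factor, and air-2, for Aurora B kinase, each had a signal of 229, with 148 and 84.3 in replicates 1 and 2 for cdt-1 and 151 and 76.5 for air-2, whose summit is shared with B0207.6. The RING gene rbx-1 had 42.7, with 18.5 in each replicate's list, at rank 2918 in replicate 1 and rank 2030 in replicate 2. It was not counted when replicate 2 was left out. The genes lrr-1, cul-2 and elc-1, for other parts of the same ligase, had no IDR summit.

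Of 14 other AAA ATPase genes, 8 (57.1%) had an IDR summit, with a median signal of 202. The strongest were at vps-4, of membrane remodelling (847), and spas-1, the spastin orthologue that severs microtubules (793), with 513 and 329 in replicates 1 and 2 for vps-4 and 498 and 297 for spas-1. Then came the mitochondrial protease gene spg-7 (392, shared with Y47G6A.14), the meiotic checkpoint gene pch-2 (229) and the mitochondrial gene atad-3 (174, shared with nrde-2). The vesicle-fusion gene nsf-1 had 91.8, the bromodomain ATPase gene lex-1 had 91.4 and the katanin gene mei-1 had 54.2, at summits shared with adr-1, tmed-1 and npp-2. The gene cdc-48.3, named for its likeness to the ATPase, had none, nor did mac-1, prx-1, prx-6 and 2 more. None of the 8 reached the signal of cdc-48.1, which follows from its rank of 2 in the IDR list.

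**Figure D5:**
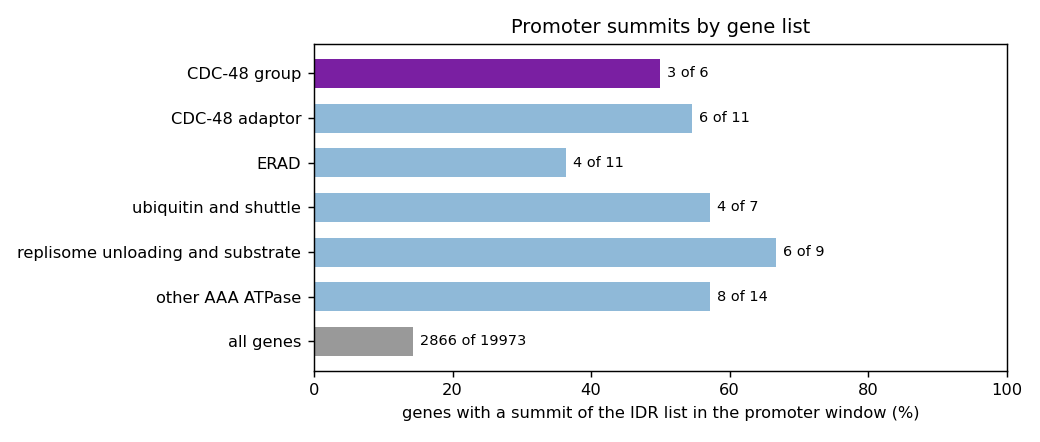
Share of genes with an IDR summit in the promoter window, in percent, for the CDC-48 genes, the 5 lists and all protein-coding genes, with the counts beside the bars. The bars run from 36.4% for the ERAD list to 66.7% for the replisome list, against 14.3% for all genes.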

How the data were processed

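DPL-1 ChIP-seq peak lists of 2 biological replicates were used on build ce11. A relaxed list for each replicate was made by the authors, per the deposited file listing, from its alignments and 1 control file, a pooled relaxed list from both, and an IDR-thresholded list from these 3. Each peak has the signal of the authors' caller, on a scale that is not stated, and a deposited −log10 q value. Not given in the sources used here are the aligner, the caller and the IDR threshold, and the depth is unknown, so no interval that needs counts was given.

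Summits were taken as start plus offset, 1-based, and set against 5' ends of all transcripts of the 19973 nuclear protein-coding genes of Ensembl release 115 (WBcel235). A summit counted for every gene whose window held it. Replicate summits were matched within 100 bp. Copies were aligned globally with Biopython 1.88 (match 2, mismatch -1, gap opening -5, gap extension -0.5), with Python 3.11.15, pandas 2.3.3, numpy 2.4.6 and matplotlib 3.10.9. Window counting and word search were tested on simulated data.

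The genes, lists, words and alternatives were chosen with earlier results of these data known, and nothing was tested. Named are the 6 genes, genes sharing their summits, their next protein-coding neighbours, every list gene with an IDR summit and up to 4 without in list order, and the 3 genes most like each gene with a summit. The symbol of 1 gene of the AAA list, fign-1, was not matched in the annotation.

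For sensitivity, the window, the assignment of summits, the peak list, the replicate, the matching distance and the length searched for words were varied. The labels do not say whether the replicates came from separate cultures, so the spread between them may be technical.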

Additional observations from a re-analysis of the deposited data

How the results depend on the processing

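Of 79 alternative values for 13 results, 12 moved, by over 1.5 times for a count or by more than the SD between replicates for a rank. The other 67 were within these limits, which are wide for small counts. Some of the 67 could not move: the IDR peaks are the strongest of the pooled relaxed list, so ranks there equal the IDR ranks. The limit for a rank also came from the same replicate ranks that leaving out a replicate gives. The count of 3 CDC-48 genes with an IDR summit was 2 with a window of 500 bp upstream, with each summit given to the nearest gene only, or with IDR peaks above the median signal, and cdc-48.2 was the gene lost each time. It was 4 in the pooled relaxed list, through ufd-1, and 3 under the other 5 alternatives. The count over all genes was 1773 with IDR peaks above the median and 8237 in the pooled relaxed list. The ERAD count of 4 was 2 with the nearest gene only, 2 with peaks above the median and 7 in the pooled relaxed list. The ubiquitin and shuttle count of 4 was 2 with the nearest gene only and 7 in the pooled relaxed list. Leaving out a replicate gave 2 to 4 for that list, where ubq-1 and rad-23 were lost without replicate 1. With a replicate left out, a rank was that in the relaxed list of the replicate kept, already given above, and no IDR list was remade. These ranks were 1325 to 2176 for cdc-48.2, with 2176 without replicate 1, and 1077 to 1204 for ufd-2. Within 50 bp of the summit, 0 of 3 summits had an E2F-type word and 1 had a CHR-type word. With a matching distance of 50 bp, 2 of the 3 summits matched between replicates. The cause of these moves was not tested. No paired analysis was possible because the replicates form 1 group. Depth is unknown, so a missing summit says only that none was listed, and shared summits cannot be assigned to 1 gene.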

Other observations

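Around cdc-48.1, 3 further IDR summits lay past the 3' end of the gene, in the intergenic stretch before mnk-1, the next gene on the same strand. They stood 970, 2518 and 4281 bp past the end of cdc-48.1, with signals of 64.3, 42.4 and 37.4 and ranks 1514, 2144 and 2349. The first had 27.7 in replicate 1 (rank 2031) and 40.8 in replicate 2 (rank 988), the second 16.3 (rank 3311) and 29.4 (rank 1343), and the third 19.7 (rank 2746) and 18.2 (rank 2046). All 3 ranked better in replicate 2. Within the coding exons of cdc-48.1, replicate 2 listed 3 weak summits with signals of 8.49 (rank 4416), 3.74 (rank 20954) and 4.94 (rank 12569). Replicate 1 listed none there.

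Past cdc-48.2, whose 3' end overlaps that of ints-11 on the opposite strand, an IDR summit stood in the 5' untranslated region of ints-11. Its signal was 72.2 (rank 1392), with 47.1 in replicate 1 (rank 1314) and 24.4 in replicate 2 (rank 1584). It lay 2248 bp past the end of cdc-48.2. No other IDR summit was listed within 5000 bp of ufd-2, and none within 5000 bp of npl-4.1 or npl-4.2. These values were chosen after they were seen and were not tested.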
